A study of Mus musculus with 16 samples.

Results

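This comparison sets lungs that received titanium dioxide (TiO2) particles against lungs that received saline, over mice of both pregnancy states at once. All 16 samples of the series enter it: 8 TiO2 arrays against 8 PBS arrays, with pregnancy state held as an additive term, and attention goes to the genes whose difference had the same sign in pregnant and in non-pregnant mice. The mice were female BALB/c, an inbred laboratory strain. The 4 groups were non-pregnant TiO2 mice, non-pregnant PBS mice, pregnant TiO2 mice and pregnant PBS mice, with 4 arrays each. TiO2 mice were given 50 ug of respirable TiO2 dust, heated to remove endotoxin, through the nose under light anaesthesia and PBS mice the phosphate-buffered saline vehicle, and the lungs were taken for RNA 19 hours after this single dose. Gestation stood at day 14 in the pregnant mice. The age of the mice is not given in the sources used here, and neither is whether each array holds 1 animal, so the p-values measure the spread between these samples. The study asked whether pregnancy changes the lung's inflammatory response to such particles, and the values below concern the TiO2 difference that both states share.

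Each value is a level in log2 units, taken as log2 of the quantile-normalised intensity plus 16 on an Affymetrix mouse genome array, and each difference is TiO2 minus PBS on that scale with its standard error (SE). The lung markers were high on every array, since Sftpc, a surfactant protein of alveolar type 2 cells, lay at 13.15, 13.25 and 13.29 in the TiO2 mice (lowest, median and highest of 8), against 13.17, 13.26 and 13.49 in PBS mice. Scgb1a1, the secretoglobin of club cells, lay at 13.44, 13.49 and 13.55, against 13.44, 13.47 and 13.55 in PBS mice.

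Some arrays stood apart in tissue content. Prss16, a protease of thymic epithelium, was at 8.98 and 9.72 in non-pregnant PBS replicates 3 and 4, and the thymus list averaged 8.77 and 8.85 log2 there, against at most 7.38 on the other arrays. Pregnant TiO2 replicate 2 had Krt13, a squamous keratin, at 5.21 and Acta1, the actin of skeletal muscle, at 6.56, where the other 3 pregnant TiO2 arrays had at least 12.34 and 12.23. Glycam1, made by the high endothelial venules of lymph nodes, had levels of 4.14, 9.29, 8.06 and 4.60 in the non-pregnant TiO2 mice, against 9.38, 8.97, 10.57 and 8.91 in non-pregnant PBS mice. In pregnant TiO2 mice Glycam1 was at 10.76, 4.15, 10.56 and 10.73, against 10.63, 10.36, 9.45 and 10.70 in pregnant PBS mice. The 18S ribosomal RNA signal averaged 359 ± 200 in the non-pregnant TiO2 mice, against 139 ± 49.7 in non-pregnant PBS mice, and 101 ± 51.2 in pregnant TiO2 mice, against 77.9 ± 25.4 in pregnant PBS mice (intensity, SD, n = 4 each). That measure was 1.69-fold higher over both states (exact permutation within states, two-sided p = 0.0596, adjusted p = 0.298 over 5 array measures), and its part in the results below was not tested. The labels of non-pregnant PBS replicate 2 conflict, 1 field calling the mouse pregnant and another not. It was kept as non-pregnant, because the study's own list of samples and design put 4 arrays in each group.

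**Figure D1:**
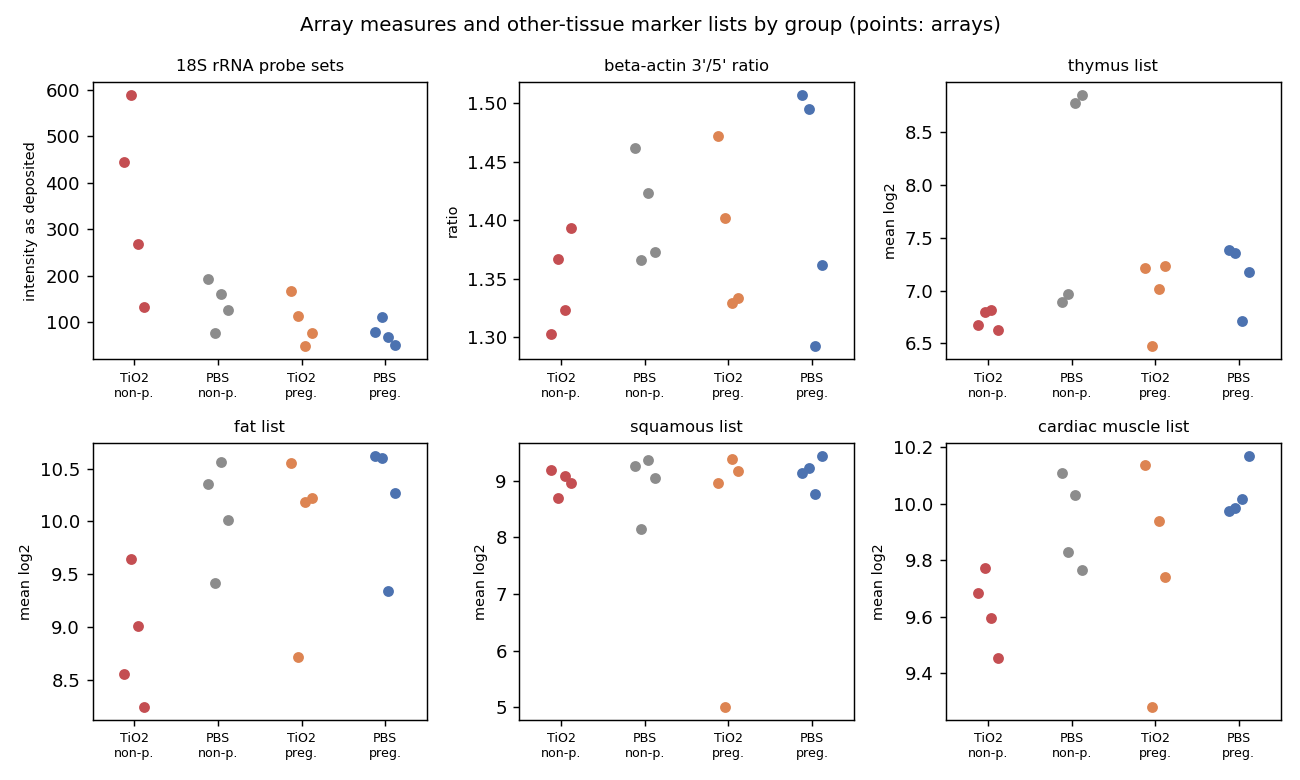
Array measures by group, with 1 point per array: the 18S signal as deposited intensity, the 3'/5' ratio of beta-actin probe sets, and the mean log2 level of 4 tissue marker lists. The thymus list separates 2 non-pregnant PBS arrays (8.77 and 8.85), the squamous list separates pregnant TiO2 replicate 2, and the fat list ran from 8.24 to 9.64 in the non-pregnant TiO2 mice, against 9.42 to 10.56 in non-pregnant PBS mice.

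Particles that settle in the lung meet a mucous lining, antimicrobial proteins secreted by the airway epithelium, and alveolar macrophages that engulf and try to degrade them. Epithelium that senses injury or cytokines secretes acute-phase and iron-binding proteins and carries IgA to its surface, while macrophages release proteases that cut matrix. Neutrophils and monocytes held in the lung's vessels form a further pool, whose size in a whole-lung sample depends on how many such cells the organ holds. In bulk RNA, fewer cells of a type and less RNA per cell cannot be told apart.

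Promoters are shown for 4 genes with higher levels in TiO2 mice, picked because each holds a C/EBP-type sequence, the site class of transcription factors active in macrophages, airway epithelium and the acute-phase response. The windows are the 250 bases before the annotated start in RefSeq on GRCm38.p6, 5′ to 3′ on the gene's strand, with TTGCNNAA or its reverse complement in capitals. They lie at chr3:95498960-95499209 (plus strand) for Ctsk, chr2:32387740-32387989 (minus strand) for Lcn2, chr9:7344147-7344396 (plus strand, the first of 2 windows) for Mmp12 and chr7:46715677-46715926 (minus strand) for Saa3.
Ctsk: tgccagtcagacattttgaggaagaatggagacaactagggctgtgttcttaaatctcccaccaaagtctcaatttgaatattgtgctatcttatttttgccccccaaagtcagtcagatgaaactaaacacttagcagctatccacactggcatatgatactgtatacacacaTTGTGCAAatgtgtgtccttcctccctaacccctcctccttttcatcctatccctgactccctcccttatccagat
Lcn2: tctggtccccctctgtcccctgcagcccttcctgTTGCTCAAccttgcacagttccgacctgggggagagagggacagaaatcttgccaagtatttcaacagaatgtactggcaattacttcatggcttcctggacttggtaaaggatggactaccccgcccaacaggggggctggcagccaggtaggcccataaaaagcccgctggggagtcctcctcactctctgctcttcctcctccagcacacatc
Mmp12: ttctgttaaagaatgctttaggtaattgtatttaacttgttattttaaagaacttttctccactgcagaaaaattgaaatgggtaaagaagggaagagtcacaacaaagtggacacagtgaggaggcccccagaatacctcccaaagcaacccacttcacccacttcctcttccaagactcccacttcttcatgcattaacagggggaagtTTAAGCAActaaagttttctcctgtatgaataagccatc
Saa3: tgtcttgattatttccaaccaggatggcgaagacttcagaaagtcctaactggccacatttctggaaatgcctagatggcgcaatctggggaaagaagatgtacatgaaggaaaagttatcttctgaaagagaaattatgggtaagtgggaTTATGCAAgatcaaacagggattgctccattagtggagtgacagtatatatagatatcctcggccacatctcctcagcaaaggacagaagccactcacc

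Searched on both strands, TTGCNNAA lay in 3 of the 7 windows held for the 8 genes that lead the higher side below (Ctsk, Lcn2 and Mmp12, but not Pigr, Gch1, Eif2ak2 or Tmem102), in 2 of 8 for the genes that lead the lower side (Nppa and Ndrg4), and in 10.8% of all 27025 genes with a window. Saa3 is outside those 16 genes and was shown for the size of its difference as well as for its match. The match ends 69 bases before the start in Ctsk, 209 in Lcn2, 32 in Mmp12 and 92 in Saa3. The PU.1-type letters GAGGAAG lay in 3 of the 7 higher windows (Ctsk, Lcn2 and Mmp12) and 1 of 8 lower (F13a1), against 12% of all. An NF-kappaB-type motif lay in 2 of 7 higher (Mmp12 and Gch1) and 0 of 8 lower, against 8.23%. The AP-1 letters TGANTCA lay in 1 of 7 higher (Mmp12, in its other window) and 0 of 8 lower, against 7.82%. An interferon-response-type motif lay in 0 of 7 and 1 of 8 (Eomes), against 3.46%, and a glucocorticoid-receptor-type motif in none of the 15, against 0.429%. In the 4 windows printed above none of these other motifs overlapped the capitals. The Saa3 window also held 1 interferon-response-type match. The window of Tff2 was not used here. These are matches of letters and not shown to be sites.

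No gene passed the threshold. Limma's additive fit over 12369 genes called 0 higher and 0 lower at an adjusted p of 0.05 (0.00% in each direction), and the lowest adjusted p was 0.207. At an unadjusted p under 0.05 stood 705 genes (5.70%), 247 of them higher (2.00%) and 458 lower (3.70%). Of all genes 5712 lay above 0 and 6657 below. These shares are the background of every list count below that comes from this fit. Other fits have their own all-gene counts, given at the end. The differences were small: the median over all genes was −0.01, with the lower and upper 5% of genes beyond −0.23 and 0.16. Only 12 genes lay above 0.5 and 105 below −0.5, and the median SE was 0.09. The genes named below are therefore given as values, and none of them is a call.

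In most genes the sign of the difference was not shared between pregnancy states. It was the same in 5310 of 12369 genes (42.9%), with 2369 higher in both and 2941 lower in both. Past an unadjusted p of 0.05 in each state were 127 genes, of which 16 were higher in both (0.129% of all tested), 25 lower in both (0.202%) and 86 opposite. Among those 86, 57 were lower in non-pregnant mice and higher in pregnant mice, and 29 the reverse. The TiO2 and PBS arrays did not overlap in either state in 3 genes higher in both (0.0243%) and 8 lower in both (0.0647%), and in 18 genes whose 2 states were opposite. Over all 8 against 8 arrays 2 genes were without overlap, both lower (0.0162%), and 0 higher (0.00%). Within non-pregnant mice, within pregnant mice and for the difference between the states limma also called 0 genes, with 1223, 795 and 1352 at an unadjusted p under 0.05 and lowest adjusted p of 0.146, 0.257 and 0.232.

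**Figure D2:**
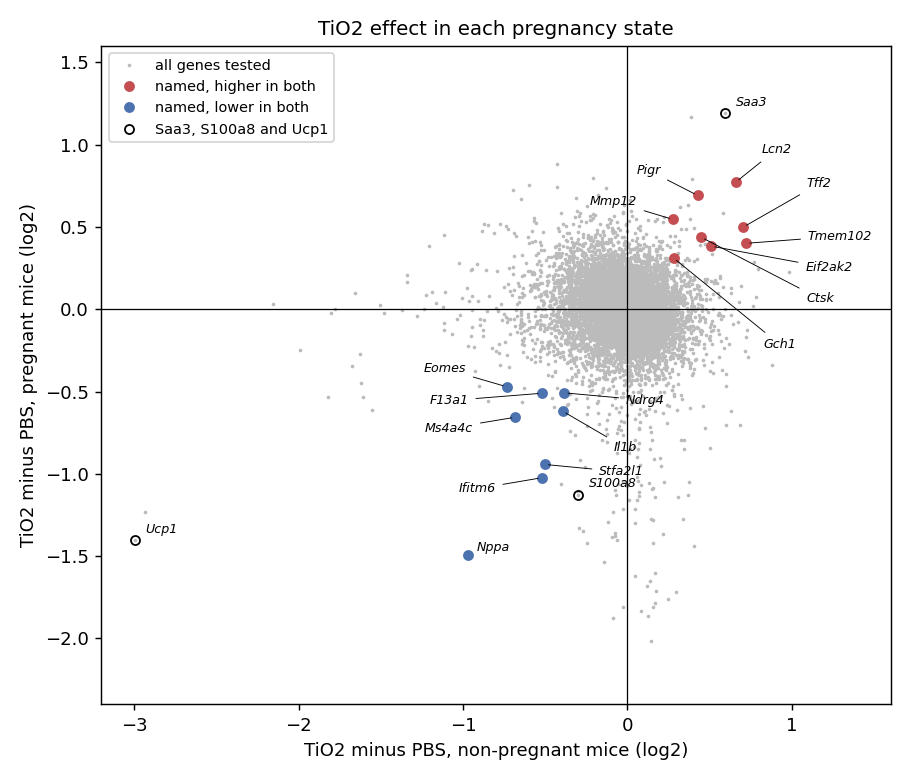
TiO2 minus PBS difference of each of 12369 genes in non-pregnant mice (horizontal axis, log2) and in pregnant mice (vertical axis, log2), 4 against 4 arrays each. The 8 genes leading each direction lie in the upper right and lower left fields, which together hold 5310 of the genes. Saa3 is at 0.59 and 1.19, S100a8 at −0.30 and −1.13, and Ucp1 at −3.00 and −1.40.

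The leading genes on the higher side included secreted and transport proteins of the airway lining (Lcn2, Pigr and Tff2) and matrix-cutting proteases (Ctsk and Mmp12). By smallest p with 1 sign in both states they were Ctsk, Pigr, Lcn2, Tff2, Mmp12, Gch1, Eif2ak2 and Tmem102, at differences of 0.30 to 0.72 log2 (1.23-fold to 1.64-fold) and adjusted p of 0.207 to 0.356.

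Ctsk, cathepsin K, is a lysosomal cysteine protease that cuts collagen and elastin. It was at 8.48, 8.54, 8.36 and 8.52 in the 4 non-pregnant TiO2 mice, against 7.97, 7.97, 7.85 and 8.32 in non-pregnant PBS mice. The levels in pregnant TiO2 mice were 8.70, 9.00, 8.51 and 8.82, against 8.45, 8.20, 8.28 and 8.35 in pregnant PBS mice. The TiO2 arrays were higher than the PBS arrays of their own state without overlap in both states, and the difference was 0.44 ± 0.08 (limma's adjusted p = 0.207), nearly equal in non-pregnant (0.45) and pregnant mice (0.44). Mmp12, the elastase of macrophages, was at 6.31, 6.54, 6.43 and 6.75 in the non-pregnant TiO2 mice, against 6.40, 6.22, 6.19 and 6.11 in non-pregnant PBS mice, where 1 TiO2 array lay below the highest PBS array. Pregnant TiO2 mice had levels of 6.90, 7.15, 6.78 and 6.84, all above the 6.30, 6.47, 6.16 and 6.55 of pregnant PBS mice. Its difference was 0.41 ± 0.09 (limma's adjusted p = 0.261). Mmp3, stromelysin 1, which cuts proteoglycans and activates other metalloproteinases, had 7.26, 7.67 and 7.86 in TiO2 mice (lowest, median and highest), against 7.04, 7.27 and 7.62 in PBS mice, with a difference of 0.35 ± 0.10. Mmp12 and Mmp3 were the 2 of 28 measured matrix and fibroblast genes at an unadjusted p under 0.05, both higher (background 2.00%), and that list had a median of 0.09 against −0.01 over all genes.

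Lcn2, lipocalin 2, which withholds iron from bacteria by binding their siderophores, was at 10.53, 11.09, 10.38 and 10.76 in the non-pregnant TiO2 mice, against 10.42, 9.93, 9.57 and 10.20 in non-pregnant PBS mice. Among the pregnant mice, those given TiO2 had 11.17, 11.48, 11.22 and 11.80, against 10.54, 10.56, 10.95 and 10.53 in pregnant PBS mice. In pregnant mice no PBS array reached the lowest TiO2 array, while in non-pregnant mice 1 PBS array lay above 1 TiO2 array. The difference was 0.72 ± 0.13 (1.64-fold, limma's adjusted p = 0.216). Saa3, serum amyloid A3, the local acute-phase protein of mouse tissues, had the most positive difference of all 12369 genes, 0.89 ± 0.23, with an adjusted p of 0.388 in limma. It was at 8.34, 8.22, 8.05 and 8.54 in the non-pregnant TiO2 mice, against 8.67, 7.76, 6.83 and 7.52 in non-pregnant PBS mice. The pregnant TiO2 mice had 9.05, 9.04, 8.53 and 9.92, against 8.04, 8.05, 8.15 and 7.53 in pregnant PBS mice. The pregnant groups did not overlap, but non-pregnant PBS replicate 1 was above all 4 non-pregnant TiO2 arrays. The lowest non-pregnant PBS levels, 6.83 and 7.52, were on the 2 arrays rich in thymus transcripts. Without these 2 arrays the difference of Saa3 was 0.75, and without the 3 arrays of unlike tissue it was 0.72. Most of it stood in pregnant mice (1.19, against 0.59 in non-pregnant mice with all arrays). Itih4, a liver acute-phase glycoprotein also measured here, differed by 0.30 ± 0.11.

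The acute-phase list as a whole was mixed. Of 12 measured genes 10 lay above 0 and 6 were higher in both states. At an unadjusted p under 0.05 stood 4 higher (background 2.00%) and 1 lower (background 3.70%), with a list median of 0.15. The lower one was Orm1, the transport protein orosomucoid, at 5.92, 6.42, 5.77 and 5.67 in the non-pregnant TiO2 mice, against 8.44, 7.37, 8.14 and 6.95 in non-pregnant PBS mice. Its difference of -0.89 ± 0.34 was -1.78 in non-pregnant mice, where the arrays did not overlap, and 0.00 in pregnant mice, where they did. It was −0.41 with Glycam1 and −0.15 with the fat list mean as a covariate, and the fat list was lower on the non-pregnant TiO2 arrays as well (8.24 to 9.64, against 9.42 to 10.56 in non-pregnant PBS mice). Without the 2 arrays rich in thymus transcripts the list's median was 0.07, with 5 higher and 0 lower at an unadjusted p under 0.05.

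Pigr, the receptor that carries dimeric IgA across epithelium, was at 9.55, 9.43, 9.04 and 9.64 in the non-pregnant TiO2 mice, against 9.16, 9.11, 8.90 and 8.79 in non-pregnant PBS mice. The 4 pregnant TiO2 arrays were at 10.31, 9.99, 9.83 and 10.08, against 9.29, 9.20, 9.42 and 9.54 in pregnant PBS mice. The pregnant groups were apart, and non-pregnant TiO2 replicate 3 was the only TiO2 array under a PBS array of its state. The difference was 0.56 ± 0.10 (limma's adjusted p = 0.207), and its 2 probe sets gave 0.56 and 0.69. With each array left out in turn, Pigr passed the threshold only without that array, at 0.63 (limma's adjusted p = 0.0201). That array is the same 1 that went against the difference, and in the other fits limma's adjusted p reached 0.468. Tff2, a trefoil peptide that stabilises mucus, was at 7.23, 6.91, 6.23 and 6.38 in the non-pregnant TiO2 mice, against 5.84, 5.88, 6.28 and 5.92 in non-pregnant PBS mice. In pregnant TiO2 mice Tff2 was at 6.90, 6.82, 7.05 and 6.89, against 6.30, 6.32, 6.50 and 6.54 in pregnant PBS mice. The non-pregnant TiO2 arrays were spread widely and 1 of them lay under the highest PBS array, while the pregnant groups were apart. Its difference was 0.60 ± 0.12 (limma's adjusted p = 0.261).

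**Figure D3:**
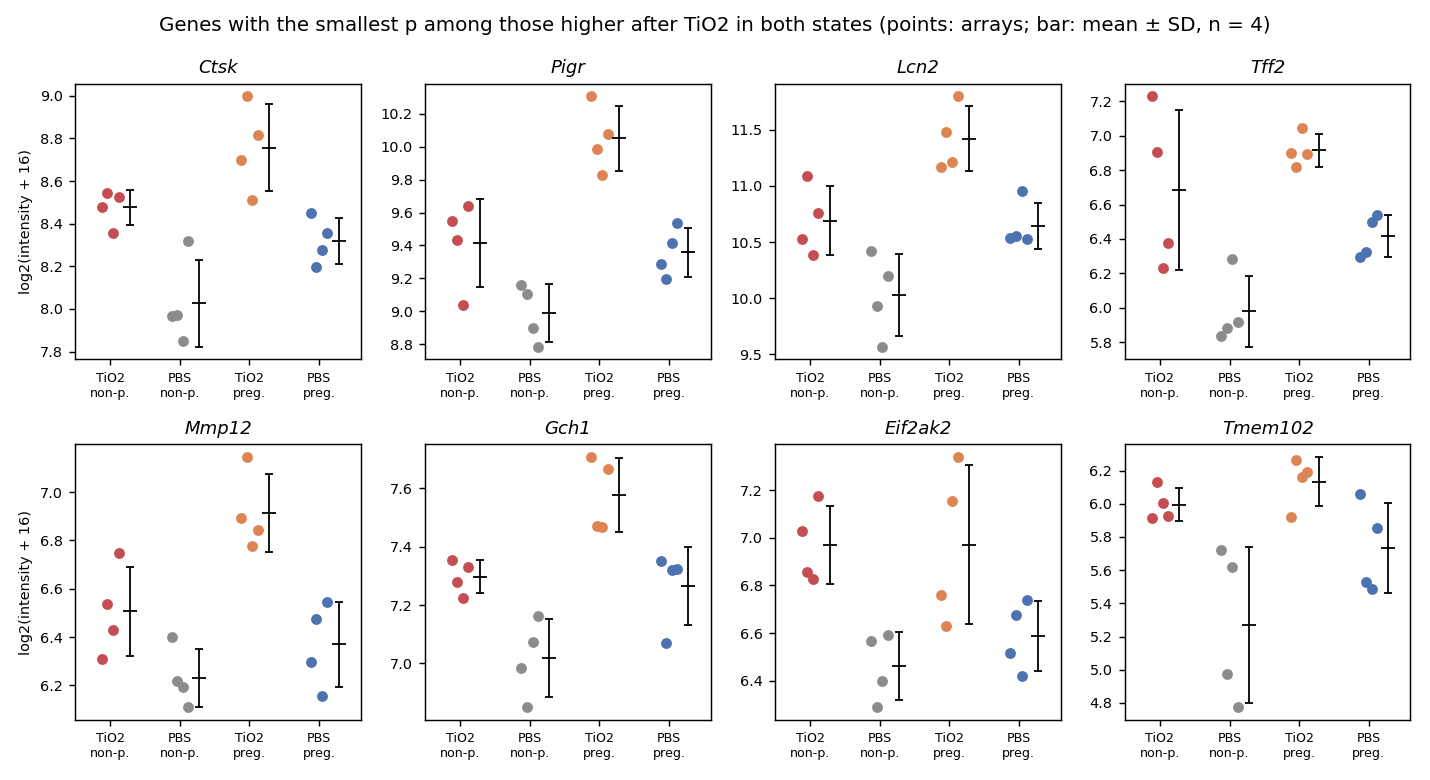
Levels (log2 of intensity plus 16) of the 8 leading genes on the higher side, with 1 point per array and bars for the mean ± SD of 4 arrays per group. In each panel the TiO2 mean is above the PBS mean in both states, without overlap in both states for Ctsk and Gch1 (0.0243% of all genes tested were higher without overlap in both).

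Agr2, an isomerase needed to fold mucins, was at 5.49, 5.84 and 6.55 in TiO2 mice, against 4.95, 5.54 and 6.02 in PBS mice, with a difference of 0.45 ± 0.13 that was similar in non-pregnant (0.41) and pregnant mice (0.50). Gabrp, a GABA-receptor subunit of secretory epithelium, was at 8.25, 8.83 and 9.27 in TiO2 mice, against 7.78, 8.38 and 8.78 in PBS mice. Most of its difference of 0.37 ± 0.13 stood in non-pregnant mice (0.63, against 0.10 in pregnant mice). It was 0.23 without the 2 non-pregnant PBS arrays rich in thymus transcripts and 0.21 with the thymocyte list mean as a covariate. Tff2, Agr2 and Gabrp were 3 of 14 measured club and secretory airway genes at an unadjusted p under 0.05, all higher, against the 2.00% background, and 0 were lower. The list's median was only 0.07, and 6 of its genes were higher in both states. Without the 2 thymus-rich arrays the median was 0.01 and the count stayed at 3.

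Gch1, GTP cyclohydrolase, makes the first intermediate of tetrahydrobiopterin, the cofactor of nitric oxide synthases. It was at 7.36, 7.28, 7.23 and 7.33 in the non-pregnant TiO2 mice, against 6.98, 6.85, 7.08 and 7.16 in non-pregnant PBS mice. The levels in pregnant TiO2 mice were 7.71, 7.47, 7.47 and 7.66, against 7.35, 7.07, 7.32 and 7.32 in pregnant PBS mice. No array of the TiO2 groups reached down to a PBS array of its state, although the difference was small, 0.30 ± 0.06 (limma's adjusted p = 0.261). A second probe set of Gch1 gave 0.07. Ctsk and Gch1 were 2 of the 3 genes higher without overlap in both states (0.0243% of all 12369 tested). The other was Tmem237, named after its values were seen.

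Eif2ak2, the kinase PKR that halts translation on sensing double-stranded RNA, was at 7.03, 6.86, 6.82 and 7.18 in the non-pregnant TiO2 mice, against 6.57, 6.29, 6.40 and 6.59 in non-pregnant PBS mice. Pregnant TiO2 mice had levels of 6.76, 6.63, 7.15 and 7.34, against 6.52, 6.68, 6.42 and 6.74 in pregnant PBS mice, where the groups overlapped. Its difference was 0.45 ± 0.10 (limma's adjusted p = 0.261), and its 3 probe sets ranged from 0.15 to 0.45. Eif2ak2 is induced by interferon. In the interferon list 2 of 22 measured genes were higher at an unadjusted p under 0.05, 0 were lower, and the list median was 0.01. Those 2 were Ifit3, which binds viral RNA ends as part of a complex and differed by 0.19 ± 0.08, and the apoptosis factor Xaf1, which differed by 0.19 ± 0.08. Without the 3 arrays of unlike tissue Ifit3 was at a difference of 0.13 and 4 genes of the list were higher. Tmem102 was at 5.91, 6.13, 6.01 and 5.93 in the non-pregnant TiO2 mice, against 5.72, 4.97, 5.62 and 4.77 in non-pregnant PBS mice. Among the pregnant mice, those given TiO2 had 5.92, 6.26, 6.16 and 6.19, against 6.06, 5.53, 5.49 and 5.85 in pregnant PBS mice. Its difference was 0.56 ± 0.13 (limma's adjusted p = 0.356), and 2 of the non-pregnant PBS arrays lay far under all other arrays.

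Macrophage genes did not go 1 way. Cd14, which passes bacterial lipopolysaccharide to its toll-like receptor, was at 8.76, 8.99 and 9.37 in TiO2 mice, against 7.96, 8.65 and 8.93 in PBS mice, with a difference of 0.42 ± 0.11 that was alike in non-pregnant (0.44) and pregnant mice (0.39) with all arrays. The difference of Cd14 was 0.30 without the 2 PBS arrays rich in thymus transcripts, which enter only the non-pregnant value. It was also 0.30 with the thymocyte list mean as a covariate. Gpnmb, a lysosomal glycoprotein of lipid-laden macrophages, differed by 0.20 ± 0.07, and Msr1, the scavenger receptor A of macrophages, by -0.36 ± 0.12. Fcgr4, a mouse receptor for IgG, differed by -0.25 ± 0.10. Of 17 measured alveolar macrophage genes 3 were higher and 1 lower at an unadjusted p under 0.05 (median 0.03), against backgrounds of 2.00% and 3.70%. The phagocytosis and lysosome list had 3 higher and 2 lower of 26 (median 0), against the same backgrounds. Marco, the scavenger receptor that binds unopsonised particles, was at 4.14, 4.77, 4.13 and 4.24 in the non-pregnant TiO2 mice, against 6.55, 4.23, 5.54 and 4.16 in non-pregnant PBS mice. The 4 pregnant TiO2 arrays were at 6.12, 6.26, 6.02 and 6.36, against 6.06, 6.18, 6.10 and 6.40 in pregnant PBS mice. In non-pregnant mice all TiO2 arrays and 2 PBS arrays lay below 5, and only the other 2 PBS arrays were above it. These low arrays lie close to the floor of 4 that the added 16 sets on this scale, so the non-pregnant difference has no exact size.

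The leading genes on the lower side included genes of leukocytes (Stfa2l1, Il1b, F13a1 and Eomes) and of heart muscle (Nppa). By smallest p with 1 sign in both states they were Stfa2l1, Il1b, F13a1, Nppa, Ifitm6, Ms4a4c, Eomes and Ndrg4, at differences of −0.45 to −1.23, all at an adjusted p of 0.261 in limma.

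Stfa2l1, a stefin that inhibits cysteine proteases and is found in mouse neutrophils, was at 6.14, 6.48, 6.93 and 5.98 in the non-pregnant TiO2 mice, against 6.80, 7.04, 7.01 and 6.67 in non-pregnant PBS mice. In pregnant TiO2 mice it was at 6.65, 7.06, 7.43 and 7.02, against 8.14, 7.91, 8.12 and 7.75 in pregnant PBS mice. The pregnant groups were apart, and in non-pregnant mice TiO2 replicate 3 lay among the PBS arrays. The difference was -0.72 ± 0.14. With each array left out in turn, Stfa2l1 passed the threshold only without that array, at −0.82 (limma's adjusted p = 0.0201). In the other such fits limma's adjusted p reached 0.468. The gene belongs to a family of near-identical copies, so its probe set may also read the others. S100a8 and S100a9 encode the subunits of calprotectin, the abundant calcium-binding complex of neutrophil cytosol. S100a8 was at 10.40, 11.10, 10.75 and 10.18 in the non-pregnant TiO2 mice, against 10.70, 11.19, 11.19 and 10.54 in non-pregnant PBS mice. The levels in pregnant TiO2 mice were 10.92, 11.28, 11.46 and 11.29, against 12.64, 12.55, 12.24 and 12.02 in pregnant PBS mice. Only the pregnant groups were apart, with differences of -0.30 in non-pregnant and -1.13 in pregnant mice and -0.71 ± 0.17 over both (limma's adjusted p = 0.364, and 0.38 for the interaction). S100a9 differed by -0.73 ± 0.16, with -0.40 and -1.06 in non-pregnant and pregnant mice. Trem3, an activating receptor of myeloid cells, differed by -0.37 ± 0.08, most of it in pregnant mice (-0.56, against -0.18 in non-pregnant mice).

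Of 20 measured neutrophil genes 11 were lower at an unadjusted p under 0.05 (background 3.70%) and 1, Lcn2, was higher (background 2.00%). The median was −0.28 against −0.01 over all genes, with 13 genes lower in both states and 3 higher in both. Lcn2 is also made by epithelium. The list's mean level per array ran from 7.47 to 7.67 in the non-pregnant TiO2 mice, against 7.51 to 7.74 in non-pregnant PBS mice, and from 7.86 to 8.24 in pregnant TiO2 mice, against 8.34 to 8.73 in pregnant PBS mice. The non-pregnant groups overlapped and the pregnant groups did not. The median was −0.30 without the 2 arrays rich in thymus transcripts, −0.27 without the 3 arrays of unlike tissue and −0.32 without the array whose labels conflict, with 10 genes lower at an unadjusted p under 0.05 each time.

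Il1b, the cytokine interleukin 1 beta, was at 7.30, 7.27, 7.50 and 7.62 in the non-pregnant TiO2 mice, against 7.75, 7.83, 8.22 and 7.47 in non-pregnant PBS mice. Pregnant TiO2 mice had levels of 8.40, 8.61, 8.64 and 8.66, against 9.34, 9.39, 9.16 and 8.91 in pregnant PBS mice. The pregnant groups were apart, the non-pregnant groups overlapped by 1 PBS array, and the difference was -0.51 ± 0.10 (limma's adjusted p = 0.261). Its relative Il1a, an alarm cytokine that acts on the same receptor, lay the other way with a difference of 0.30 ± 0.08 and levels of 6.14, 6.13, 6.23 and 6.40 in the non-pregnant TiO2 mice, against 6.24, 5.60, 5.75 and 5.70 in non-pregnant PBS mice. Among the pregnant mice, those given TiO2 had 6.53, 6.44, 6.46 and 6.57, against 6.32, 6.32, 6.36 and 6.23 in pregnant PBS mice, without overlap. Il33, another alarm cytokine of the family, kept in the nuclei of alveolar epithelium, differed by 0.19 ± 0.09. In the interleukin 1 and inflammasome list 2 of 17 measured genes were higher and 1 lower at an unadjusted p under 0.05, with a median of −0.005.

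F13a1, the transglutaminase subunit of coagulation factor XIII made by monocytes and macrophages, was at 8.39, 8.29, 8.26 and 8.08 in the non-pregnant TiO2 mice, against 9.13, 8.52, 8.84 and 8.62 in non-pregnant PBS mice. The 4 pregnant TiO2 arrays were at 9.00, 8.65, 9.22 and 9.29, against 9.72, 9.68, 9.57 and 9.23 in pregnant PBS mice. Here the non-pregnant groups were apart and 1 PBS array of the pregnant mice lay among the TiO2 arrays. The difference of -0.52 ± 0.11 was the same size in non-pregnant (-0.52) and pregnant mice (-0.51). Ms4a4c, a membrane protein of the MS4A family, was at 6.57, 7.12, 6.77 and 6.84 in the non-pregnant TiO2 mice, against 7.37, 7.34, 8.26 and 7.06 in non-pregnant PBS mice. In pregnant TiO2 mice it was at 7.74, 7.79, 7.42 and 7.97, against 8.74, 8.40, 8.30 and 8.11 in pregnant PBS mice, with a difference of -0.67 ± 0.15 and −0.45 from a second probe set. Ifitm6, of the interferon-induced transmembrane family, was at 6.06, 7.07, 6.62 and 6.54 in the non-pregnant TiO2 mice, against 7.02, 7.06, 7.62 and 6.66 in non-pregnant PBS mice. The levels in pregnant TiO2 mice were 7.50, 7.69, 7.33 and 7.24, against 8.84, 8.70, 8.19 and 8.11 in pregnant PBS mice. For Ms4a4c and Ifitm6 only the pregnant groups were apart, and the difference of Ifitm6 was -0.77 ± 0.17.

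Ccr2 and Plac8, from the interstitial macrophage and monocyte list, lay on the same side, but that list went both ways. Ccr2, the chemokine receptor that brings monocytes out of bone marrow, was at 7.28, 7.86 and 8.66 in TiO2 mice, against 7.42, 8.44 and 9.08 in PBS mice, with a difference of -0.43 ± 0.16. Plac8, a small cysteine-rich protein of leukocytes, was at 9.03, 9.50 and 10.13 in TiO2 mice, against 9.19, 10.16 and 10.54 in PBS mice, with a difference of -0.45 ± 0.13. Of 16 measured interstitial macrophage and monocyte genes 9 lay above 0 and 7 below, with a median of 0.03. At an unadjusted p under 0.05, 3 were lower (F13a1, Plac8 and Ccr2, background 3.70%) and 1 higher (Cd14, background 2.00%). A further 4 leukocyte adhesion and surface genes were picked after their values were seen, so they stand for no group, and none passed. With their differences they were the integrin subunits Itga4 (-0.36 ± 0.08, limma's adjusted p = 0.261) and Itgal (-0.33 ± 0.08), the selectin ligand Selplg (-0.38 ± 0.09) and the phosphatase Ptprc, also known as CD45 (-0.41 ± 0.11, adjusted p = 0.492). For Itgal the difference was -0.33 in non-pregnant and -0.33 in pregnant mice with all arrays. Without the 2 non-pregnant PBS arrays rich in thymus transcripts the differences were -0.25 for Itgal, -0.30 for Ptprc and -0.32 for Selplg. That of Itga4 was -0.40 there, larger in size than with all arrays.

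Eomes, the T-box factor of natural killer and cytotoxic T cells, was at 6.04, 6.28, 6.10 and 6.22 in the non-pregnant TiO2 mice, against 6.56, 7.06, 7.21 and 6.74 in non-pregnant PBS mice. Pregnant TiO2 mice had levels of 6.61, 6.44, 6.16 and 5.73, against 6.52, 7.09, 6.44 and 6.78 in pregnant PBS mice. The non-pregnant groups were apart and the pregnant groups overlapped, and the difference was -0.60 ± 0.13. Nkg7, a granule membrane protein of cytotoxic cells, differed by -0.34 ± 0.13. All 8 measured natural killer cell genes lay below 0 (median −0.19), 2 of them at an unadjusted p under 0.05 (background 3.70%), and 5 were lower in both states. All 13 measured B cell genes also lay below 0 (median −0.23), 3 of them at an unadjusted p under 0.05 (background 3.70%). Of all 12369 genes 6657 lay below 0. Among the B cell genes, the complement receptor Cr2 differed by -0.47 ± 0.16 and the kinase Blk by -0.37 ± 0.14. The B cell differences stood mainly in non-pregnant mice, with list medians of −0.49 there and −0.06 in pregnant mice.

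The T cell list was lower in 17 of 17 measured genes over both states (median −0.47), but its median was −0.95 in non-pregnant and 0.03 in pregnant mice. Only Cd5, a receptor that dampens T cell signals, reached an unadjusted p under 0.05 (-0.56 ± 0.20). Its difference was −0.24 without the 2 arrays rich in thymus transcripts and −0.15 with the thymocyte list mean as a covariate. Cd8b1, a chain of the CD8 co-receptor, was at 5.67, 6.01, 6.10 and 5.64 in the non-pregnant TiO2 mice, against 5.68, 6.82, 8.89 and 9.26 in non-pregnant PBS mice. The 2 highest of these are the PBS replicates rich in thymus transcripts. Without these 2 arrays the T cell median was −0.01, with 1 gene higher and 1 lower at an unadjusted p under 0.05, the B cell median −0.18 with 1 gene lower, and the natural killer median −0.14.

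**Figure D4:**
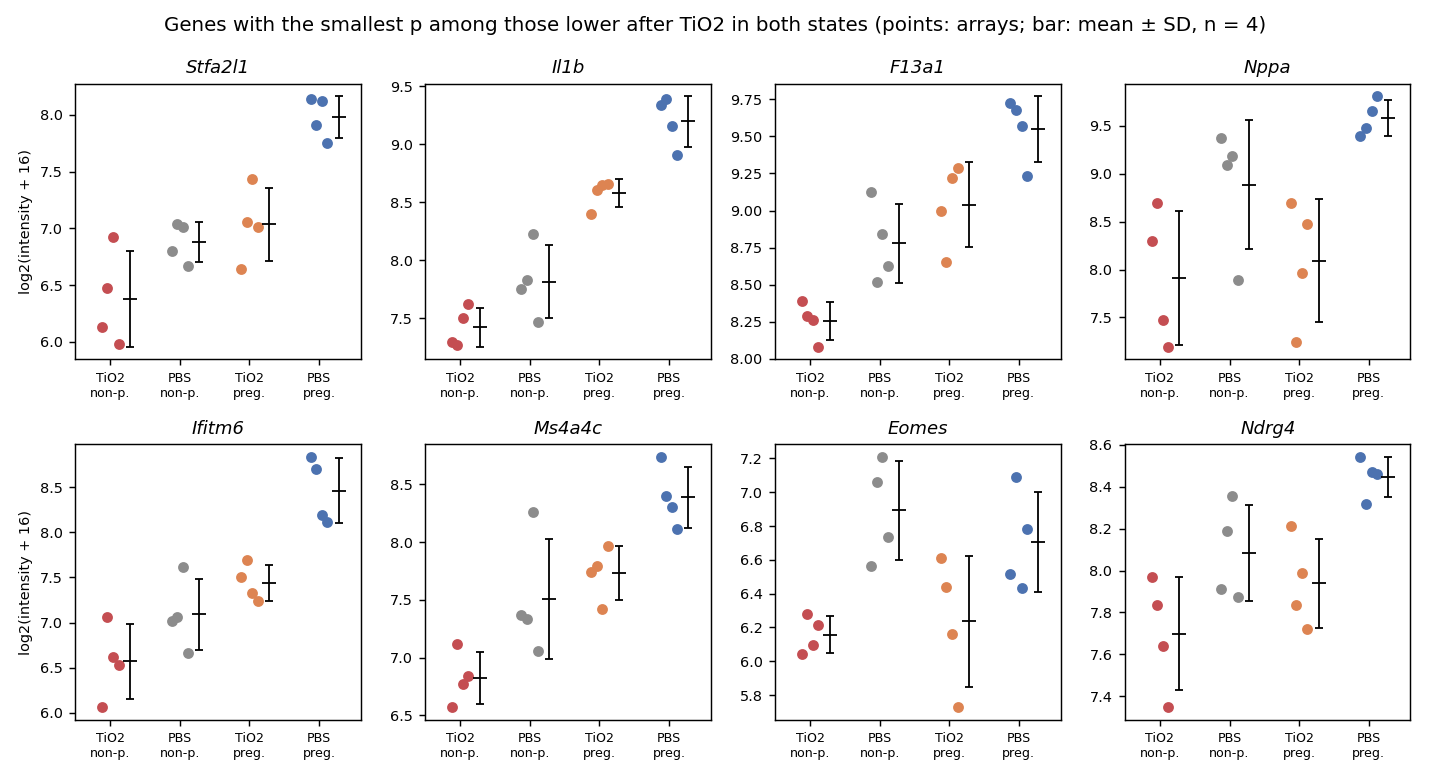
Levels (log2 of intensity plus 16) of the 8 leading genes on the lower side, with 1 point per array and bars for the mean ± SD of 4 arrays per group. The TiO2 mean is below the PBS mean in both states in every panel; for Stfa2l1, Il1b, Nppa, Ifitm6, Ms4a4c and Ndrg4 the pregnant groups do not overlap, and for F13a1 and Eomes the non-pregnant groups do not.

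Nppa, the precursor of atrial natriuretic peptide made by cardiac muscle of the atria and of pulmonary vein walls in mice, was at 8.29, 8.70, 7.47 and 7.20 in the non-pregnant TiO2 mice, against 9.37, 9.09, 9.19 and 7.89 in non-pregnant PBS mice. Among the pregnant mice, those given TiO2 had 8.69, 7.24, 7.97 and 8.48, against 9.40, 9.47, 9.66 and 9.81 in pregnant PBS mice. The pregnant groups were apart and the non-pregnant groups overlapped, with 1 low PBS array. Its difference of -1.23 ± 0.26 (0.426-fold) had an adjusted p of 0.261 in limma. With the values as deposited, without scaling between arrays, it passed the threshold at −1.18 (limma's adjusted p = 0.0256). It was −0.961 with Glycam1 as a covariate and −0.985 with the fat list mean (limma's adjusted p = 0.88 and 0.917). Ndrg4, a gene of the NDRG family expressed in heart and brain, was at 7.97, 7.84, 7.64 and 7.35 in the non-pregnant TiO2 mice, against 7.91, 8.19, 8.36 and 7.87 in non-pregnant PBS mice. The 4 pregnant TiO2 arrays were at 8.21, 7.84, 7.99 and 7.72, against 8.54, 8.32, 8.47 and 8.46 in pregnant PBS mice, and the difference was -0.45 ± 0.10, with −0.15 from a second probe set. The pregnant groups were apart and the non-pregnant groups overlapped.

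All 15 measured cardiac muscle genes lay below 0, 7 of them at an unadjusted p under 0.05 against the 3.70% background. The median was −0.22, and 11 were lower in both states. The troponin Tnnc1 was at 9.44, 9.78 and 10.35 in TiO2 mice, against 9.81, 10.23 and 10.62 in PBS mice, a difference of -0.41 ± 0.12. Mybpc3, a myosin-binding protein of heart sarcomeres, differed by -0.43 ± 0.14 and the atrial light chain Myl7 by -0.28 ± 0.10. The list's mean per array ran from 9.46 to 9.77 in the non-pregnant TiO2 mice, against 9.77 to 10.11 in non-pregnant PBS mice, and from 9.28 to 10.14 in pregnant TiO2 mice, against 9.97 to 10.17 in pregnant PBS mice. The lowest array was pregnant TiO2 replicate 2, which also lacked squamous and skeletal muscle transcripts. Without the 3 arrays of unlike tissue the median was −0.17, with 4 genes lower at an unadjusted p under 0.05. With Glycam1 as a covariate it was −0.07, with 3 lower.

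Fat transcripts were lower in all 13 measured genes and in both states, with a median of −0.61 and 8 at an unadjusted p under 0.05 (background 3.70%). The list median was −1.07 in non-pregnant mice and only −0.16 in pregnant mice. In pregnant TiO2 mice the list's mean per array was 10.55, 8.72, 10.18 and 10.23, against 10.62, 10.60, 9.34 and 10.27 in pregnant PBS mice. These groups overlapped, and the low TiO2 array was replicate 2, which stood apart in tissue content. Ucp1, the uncoupling protein of brown fat, had levels of 4.41, 7.34, 6.20 and 4.15 in the non-pregnant TiO2 mice, against 9.20, 5.87, 10.49 and 8.54 in non-pregnant PBS mice. In pregnant TiO2 mice it was at 9.40, 4.55, 7.10 and 9.05, against 9.93, 9.91, 6.46 and 9.41 in pregnant PBS mice. In both states the groups overlapped. Of the TiO2 arrays 3 lay near 4, the floor that the added 16 sets on this scale, so the difference of -2.20 ± 0.81 is set in part by that floor. It ran from −2.92 to −0.23 over the alternatives. The −0.23 came with the fat list mean as a covariate, and Ucp1 is in that list, so this shrinkage is partly built in. Thrsp, a regulator of fat synthesis, differed by -1.12 ± 0.42, the fatty acid synthase Fasn by -0.43 ± 0.16 and the desaturase Scd1 by -0.38 ± 0.12. Each was mainly a difference in non-pregnant mice, for Scd1 -0.69 there and -0.06 in pregnant mice. Glycam1 was low on 3 TiO2 arrays, and with it as a covariate the list's median was −0.16 with 0 genes lower at an unadjusted p under 0.05. Without the 3 arrays of unlike tissue the median was −0.32 with 1 lower. The part of carried-over heart, fat, thymus or lymph node tissue in the differences of the heart, fat and lymphocyte lists was not tested.

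Squamous and skeletal muscle genes were low on pregnant TiO2 replicate 2 and high on all other arrays, as given above. The squamous list had a median of −0.47 and the fast skeletal muscle list −0.26, with 0 genes of either at an unadjusted p under 0.05. Without the 3 arrays of unlike tissue these medians were 0.20 and 0.32, with 0 squamous genes and 5 of 14 fast skeletal muscle genes higher at an unadjusted p under 0.05. Of all 12369 genes 498 were higher in that fit. The part of carried-over squamous or skeletal muscle tissue in these differences was not tested.

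Of the genes that respond to metals and oxidants none lay apart. The metallothionein and Nrf2 list had 0 of 29 measured genes at an unadjusted p under 0.05 in either direction (median 0.05). Its smallest p belonged to Aox1, an aldehyde oxidase, with a difference of -0.17 ± 0.08, and Gclc, the catalytic subunit of glutathione synthesis, with 0.24 ± 0.12. Hmox1, haem oxygenase 1, was at 7.08, 7.51 and 7.75 in TiO2 mice, against 7.20, 7.47 and 8.11 in PBS mice, a difference of -0.02 ± 0.12. Mt2, metallothionein 2, was at 9.50, 10.07 and 10.72 in TiO2 mice, against 9.12, 9.95 and 10.34 in PBS mice, a difference of 0.17 ± 0.16. Without the 3 arrays of unlike tissue the differences of Mt2 and Gclc were 0.33 and 0.14. Neutrophil-attracting Cxcl1 was at 7.52, 7.73, 6.90 and 6.92 in the non-pregnant TiO2 mice, against 6.66, 7.62, 7.33 and 7.23 in non-pregnant PBS mice. The levels in pregnant TiO2 mice were 7.28, 7.86, 7.05 and 7.81, against 7.17, 7.37, 7.82 and 7.12 in pregnant PBS mice, and its difference of 0.09 ± 0.17 was smaller than its SE. Of 25 measured cytokine and chemokine genes 2 were higher and 2 lower at an unadjusted p under 0.05 (median −0.02).

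In the complement and coagulation list factor B of the alternative pathway, Cfb, differed by 0.33 ± 0.11, with 0.54 in pregnant and 0.12 in non-pregnant mice. The protease C1ra of the classical pathway differed by 0.20 ± 0.07, while F13a1 was the only member lower at an unadjusted p under 0.05, of 23 measured. Retnla, a secreted product of alternatively activated macrophages and airway epithelium in mice, differed by 0.31 ± 0.14, the only 1 of 11 genes in that list at an unadjusted p under 0.05, and by 0.19 without the 2 thymus-rich arrays, where 0 were higher. Among 23 glucocorticoid-response genes 20 lay above 0 and 11 were higher in both states (median 0.11). The list median was 0.265 in non-pregnant mice and 0.016 in pregnant mice, so it stood mainly in the non-pregnant state. Lcn2 and the insulin signal adaptor Irs2 were the 2 at an unadjusted p under 0.05. Irs2 was at 6.54, 6.92 and 7.39 in TiO2 mice, against 6.00, 6.41 and 6.92 in PBS mice, with a difference of 0.46 ± 0.11 (limma's adjusted p = 0.364), and the transcription factor Cebpd differed by 0.37 ± 0.18. Of 24 immediate-early genes 1 was higher and 2 lower, among them the growth-response factor Egr1 with a difference of -0.23 ± 0.09, and 0 were lower without the 2 thymus-rich arrays.

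Cell-cycle genes had a median of 0.01 over both states, made of −0.37 in non-pregnant and 0.31 in pregnant mice, with 0 of 27 measured genes at an unadjusted p under 0.05 and 1 gene higher in both states. This list depended on the arrays rich in thymus transcripts: without those 2 its median was 0.26 with 16 genes higher and 0 lower at an unadjusted p under 0.05. It was 0.24 with 11 higher without the 3 arrays of unlike tissue, and 0.31 with 14 higher with the thymocyte list mean as a covariate. Of all 12369 genes 427, 498 and 404 were higher at that p in these fits, in the order given. The alveolar type 1, alveolar type 2, ciliated, endothelial and ribosomal protein lists had medians of 0.06, 0.01, 0.07, 0.05 and −0.003, with 0 genes of these lists at an unadjusted p under 0.05. Without the 2 thymus-rich arrays 2 alveolar type 1 genes and 1 ciliated gene were higher. In the RNA splicing list 22 of 27 genes lay below 0 and 4 were lower at an unadjusted p under 0.05, with a median of −0.07; 8 were lower and 1 higher without the 3 arrays of unlike tissue.

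**Figure D5:**
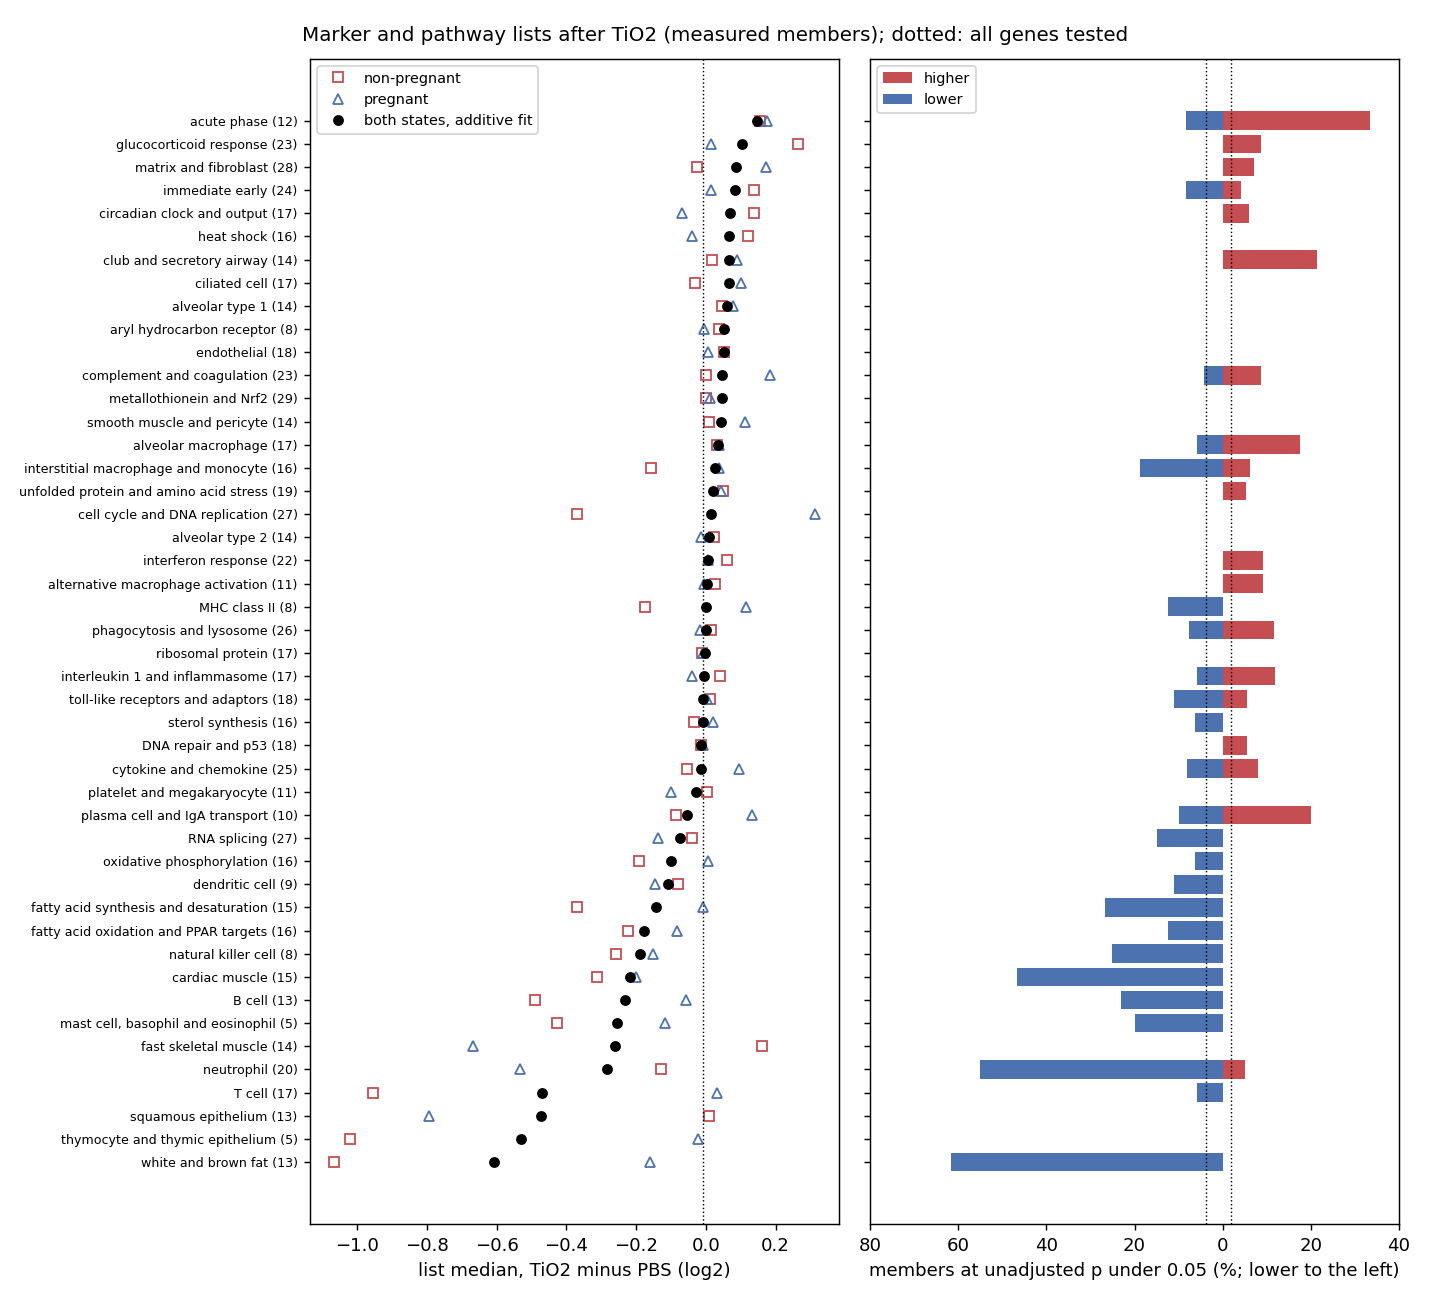
Left: median TiO2 minus PBS difference (log2) of the marker and pathway lists, those with the fewest measured genes left out, in non-pregnant mice (squares), pregnant mice (triangles) and over both states (dots), with the number of measured genes in brackets. Right: the share of each list's genes at an unadjusted p under 0.05, higher to the right and lower to the left, with dotted lines at the all-gene values of 2.00% and 3.70%; fat (8 of 13), neutrophil (11 of 20) and cardiac muscle (7 of 15) genes have long bars on the lower side.

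The genes without any overlap of all 8 TiO2 and all 8 PBS arrays were Pias3 and Gm20324, both picked after their values were seen. Pias3, an inhibitor of the transcription factor STAT3, was at 8.20, 8.27 and 8.33 in TiO2 mice, against 8.34, 8.39 and 8.71 in PBS mice, so that the lowest PBS array lay just above the highest TiO2 array. Its difference was -0.18 ± 0.06 (limma's adjusted p = 0.695). The predicted gene Gm20324 was at 5.64, 5.87 and 5.94 in TiO2 mice, against 5.98, 6.06 and 6.22 in PBS mice, with a difference of -0.23 ± 0.06 (limma's adjusted p = 0.364). Both were small and nearly equal in the 2 pregnancy states.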

How the data were processed

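Whole-lung RNA was hybridised to 16 Affymetrix mouse arrays, 4 in each of 4 groups. The deposited values are linear intensities with 1 value per probe set; the submitters' processing notes name GCOS, MAS5 and RMA, and which of them made these intensities is not stated there. The number of arrays limits the precision. Here the deposited intensities were quantile-normalised between arrays and taken as log2(intensity + 16). Of 45101 probe sets 64 controls were left out, and 23995 above their array's median on at least 4 arrays were kept. Of all probe sets 34958 had 1 gene symbol in the platform annotation, 932 several and 9160 none listed. The probe set with the highest mean stood for its gene, which gave 12369 genes.

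TiO2 minus PBS was fitted with limma 3.58.1 in R 4.3.3, with pregnancy state as an additive term, eBayes, two-sided tests and Benjamini-Hochberg adjustment over all genes (threshold 0.05). A fit of 4 group means gave the differences within each state and their interaction. The additive fit was tested on simulated data with independent noise for each gene and no pregnancy effect or tissue differences. That test does not cover those features of these arrays. The genes named were the 8 with the smallest p and 1 sign in both states in each direction, since none was called, up to 4 members with the smallest p in each list described, and a preset group (Saa3, Lcn2, Cxcl1, Il1b, S100a8, Hmox1, Mt2, Marco and tissue checks); Itga4, Selplg, Itgal, Ptprc, Pias3, Gm20324 and Tmem237 were picked after their values were seen. Members and lists were chosen with earlier results of these data known, so lists are described by counts and medians and not tested. Alternatives changed the scaling, pseudocount, filter, probe set choice, spread estimate, covariates and the arrays included.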

Additional observations from a re-analysis of the deposited data

Results flagged for a closer look

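In groups of 4 arrays a single array was set against the other 3 by Dixon's gap-to-range ratio, for 65 genes in 4 groups. Of 260 such sets 10 had an array apart (3.85%), where chance flags about 1 in 20 groups. In non-pregnant TiO2 mice Marco was at 4.77 in replicate 2 (nearest array 4.24) and Blk at 6.34 in replicate 3 (nearest 6.17). In replicate 1 of that group Selplg was at 8.32 (nearest 8.62) and Ptprc at 10.22 (nearest 10.6). In pregnant PBS mice replicate 3 was apart in 4 genes: Lcn2 was at 10.95 (nearest 10.56), Gabrp at 8.49 (nearest 8.32), and the fat genes Ucp1 and Thrsp at 6.46 (nearest 9.41) and 10.02 (nearest 11.5). Gch1 was at 7.07 in pregnant PBS replicate 2 (nearest 7.32), and Saa3 at 7.53 in pregnant PBS replicate 4 (nearest 8.04).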

How the results depend on the processing

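No paired analysis was possible because the labels give no replicate numbers shared between groups. Over 21 alternatives and 16 fits with 1 array left out, few genes were called. With the values as deposited 1 gene was called lower, and 1 the same way in both states (Nppa, −1.18, limma's adjusted p = 0.0256), 1 within pregnant mice, and genes at an unadjusted p under 0.05 in both states numbered 6 the same way and 6 opposite, against 41 and 86. Without a filter 1 gene was called in non-pregnant mice and 1 for the interaction. With array weights 1 was called in pregnant mice and 141 genes were opposite. Without the 2 thymus-rich arrays 2 were called in pregnant mice, and without the 3 arrays of unlike tissue 4 for the interaction, with 79 the same way. Without the array whose labels conflict 5 were called in non-pregnant mice and 2 for the interaction, with 158 opposite; counted as pregnant PBS it gave 25 the same way and 196 opposite. Glycam1 as a covariate gave 26 the same way and 47 opposite, the thymocyte covariate 56 opposite, the fat covariate 51 opposite, and all kept probe sets 66 the same way.

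With each array left out in turn, 0 to 1 genes were called higher, 0 to 1 lower, 0 to 2 the same way, 0 to 5 in non-pregnant mice, 0 to 1 in pregnant mice and 0 to 2 for the interaction. The genes past an unadjusted p of 0.05 in both states ran from 25 (without non-pregnant TiO2 replicate 1) to 58 (without non-pregnant PBS replicate 1) the same way, and from 42 (without pregnant PBS replicate 2) to 158 (without non-pregnant PBS replicate 2) opposite. The called genes Pigr (0.63) and Stfa2l1 (−0.82) came without non-pregnant TiO2 replicate 3 (limma's adjusted p = 0.0201 each). Of named genes Cxcl1 was at −0.028 with the fat covariate and Cd8b1 at 0.033 with the thymocyte covariate. Cd8b1 is itself a member of the thymocyte list, so that covariate takes away part of its difference by construction. Hmox1 was at 0.033 with the values as deposited, ran from −0.061 to 0.062 with each array left out in turn, and was above 0 without pregnant TiO2 replicate 4, non-pregnant PBS replicate 1 or pregnant PBS replicate 3. The causes were not tested. The split of genes at an unadjusted p under 0.05 was 247 higher and 458 lower, but 427 and 358 without the 2 thymus-rich arrays, 498 and 521 without the 3 arrays, 404 and 346 with the thymocyte covariate, 81 and 112 with values as deposited and 218 and 515 with a common trimmed mean. Without the array whose labels conflict it was 268 and 492, and with Glycam1 as a covariate 172 and 339.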
